A study of Mus musculus with 3 samples.

Results

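The genes described here are 10 members of the MHC class I antigen presentation pathway: H2-K1, H2-D1, B2m, Tap1, Tap2, Tapbp, Psmb8, Psmb9, Psmb10 and Nlrc5. They were chosen by name, with earlier results of these data known, and found by matching the probe accessions to current gene symbols. All 10 were found, on 12 of 39398 probes, among 19737 named genes, and all 12 probes were well above background on every array. H2-K1 and H2-D1 are each listed as an older alias of the other in the gene table, so both were matched by accession (NM_001001892 for H2-K1, NM_010380 for H2-D1).

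The study grew primary endothelial cells from the cavernous tissue of the C57BL/6 mouse penis in medium with serum, heparin and vascular endothelial growth factor, and measured total RNA on 3 single-colour arrays of 1 slide. By label, 1 array holds cells in 30 mmol glucose transfected with 200 pmol siRNA against Ninj1, 1 holds cells in 30 mmol glucose, and 1 holds cells in 5 mmol glucose, each after 48 h. The arrays are called by the short names in their titles, si, HG and normal, in that order. Each array carried RNA pooled over 3 numbered samples, so no difference has a replicate check, no test was run, and all differences below are descriptions of 3 arrays. The labels do not say whether the cells without Ninj1 siRNA received a control siRNA.

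The target of the siRNA went against the labels: the Ninj1 signal (the scanner software's background-subtracted brightness, in arbitrary units, from 1 probe) was 25538 on the array labelled si, 16291 on that labelled HG and 20413 on that labelled normal, a scaled log2 difference of 0.42 between the si and HG labels. The group words in the file names exchange these 2 arrays, so every direction between the si label and another label rests on the labels being right. Of 10 endothelial markers, the array labelled si had 5 well above background and the other arrays 7 each, and Emcn, Erg and Tie1 were not well above background on any. Of the 7 endothelial markers compared between the si and HG labels, 3 were at least 2-fold lower and 2 at least 2-fold higher, with a median of -0.31. Over all genes compared, 8.35% were lower and 6.62% higher by that size. All 8 fibroblast markers were well above background on every array. The differences below are those of the whole culture, in which fewer cells of a type and less RNA per cell cannot be told apart.

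MHC class I molecules show peptides from inside the cell to CD8+ T cells and are made by nearly all nucleated cells. The proteasome cuts proteins into peptides, the TAP transporter carries them into the endoplasmic reticulum, and tapasin helps to load them onto a heavy chain paired with beta-2 microglobulin. Interferons induce most genes of the pathway, in endothelial cells and fibroblasts among others, and immunoproteasome subunits then replace the constitutive catalytic subunits.

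Class I genes were lower on the array labelled si than on that labelled HG. All 10 had a negative log2 difference, as did 48.3% of the 15362 named genes compared. The median of the members was -1.13 (2.19-fold lower), against 0.02 over all genes. The differences of the members ranged from -1.59 for Psmb9 to -0.16 for Nlrc5. Psmb9, Tap1, H2-K1, Psmb8, Tapbp and Psmb10 were at least 2-fold lower, which is 6 of 10 members, where 8.35% of all genes were at least 2-fold lower. No member was at least 2-fold higher, as were 6.62% of all genes. The members were chosen with earlier results of these data known, so these shares are a description. These values use the processed signal of each array divided by that array's 75th percentile, 2026 on the array labelled si, 1731 on the array labelled HG and 1781 on the array labelled normal. With no scaling between the arrays, an alternative chosen after seeing the data, 3 of 10 members (Psmb9, Tap1 and H2-K1) were at least 2-fold lower and the median was -0.90, while the median of all genes moved to 0.24 and the shares of all genes past 2-fold to 5.76% lower and 9.69% higher. With the 2 arrays exchanged, as the file names have them, the same differences turn round: the median becomes 1.13 and 6 members are at least 2-fold higher.

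**Figure D1:**
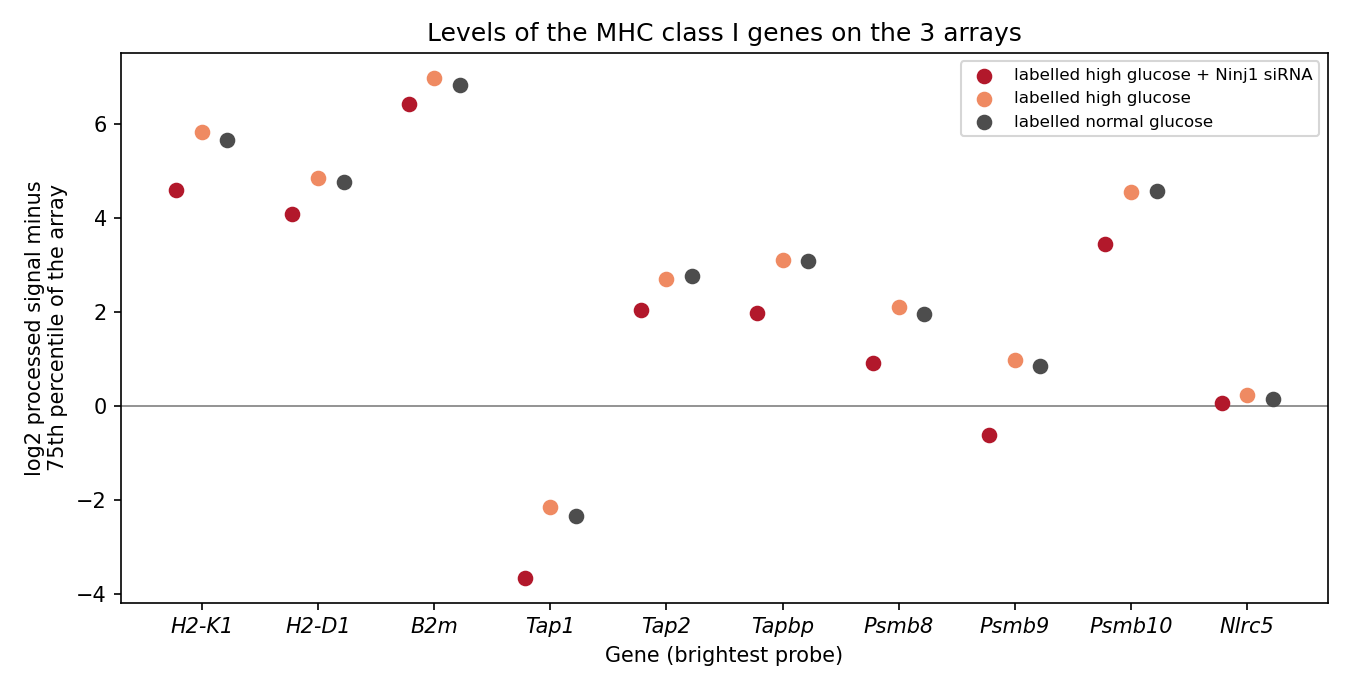
The vertical axis is the log2 processed signal of the brightest probe minus the 75th percentile of its array, for the 10 class I genes on the arrays labelled si, HG and normal (1 point per array). The si point lies lowest for every gene, and the other arrays lie close together; heights of different genes depend on their probes and cannot be compared.

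The antigen-presenting molecule itself is built from a heavy chain and a light chain. H2-K1 encodes the classical heavy chain K, and its brighter probe, printed as 10 spots, read 48959 on the array labelled si, 99286 on that labelled HG and 90210 on that labelled normal. H2-K1 was 2.37-fold lower under the si than the HG label on this probe and 2.38-fold lower on its second probe. The 10 spots of the brighter probe lay between 45131 and 50940 on the array labelled si and between 95936 and 103458 on the array labelled HG, so the spots of the arrays did not overlap. Spots are repeat readings of 1 labelled RNA and give no culture error.

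H2-D1, the gene of the classical heavy chain D, read 34514 on the array labelled si, 49912 on that labelled HG and 49079 on that labelled normal, from 1 spot each. It was 1.69-fold lower under the si than the HG label, a smaller difference than that of H2-K1 (-0.76 against -1.25 on the log2 scale). The heavy chains were 1.40-fold apart in this respect, a gap of -0.49 on the log2 scale. The spread of spots of 1 probe gives an error of 0.08 to a single difference. A gap sets a pair of differences against each other, so 0.08 is not the error of the gap. B2m, the light chain that all classical heavy chains need, was 176313 on the array labelled si, 219822 on that labelled HG and 202615 on that labelled normal. It was 1.46-fold lower under the si label than under that of HG (-0.55 on the log2 scale), and without scaling 1.25-fold lower. With quantile normalization the B2m difference was -0.77 and with cyclic loess -0.74, beside -0.86 and -0.90 for H2-D1. The size of the B2m difference, and its distance from that of H2-D1, thus depend on the processing. No spot was saturated on any array.

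The heavy and light chain genes carry known control elements just before their starts, and their promoters are shown because these genes were lower together by unequal amounts. The windows hold 250 bases before and 50 after the start in RefSeq's table of GRCm38.p6, which has windows for 8 of the members; Tap2 and Nlrc5 have no entry. The H2-K1 window is chr17:34000284-34000583 on the minus strand (the first of 2 listed), the H2-D1 window chr17:35262844-35263143 on the plus strand and the B2m window chr2:122147437-122147736 on the plus strand. Capitals mark, on either strand, the kappaB letters of enhancer A (GGGATTCCC), the X2 box or CRE letters (TGACGC or TGACGT), the Y box letters read by NF-Y (CCAAT), the core of the interferon-stimulated response element (GAAANNGAA) and the STAT site (TTCNNNGAA). None of these marks overlaps another in the printed windows.
H2-K1: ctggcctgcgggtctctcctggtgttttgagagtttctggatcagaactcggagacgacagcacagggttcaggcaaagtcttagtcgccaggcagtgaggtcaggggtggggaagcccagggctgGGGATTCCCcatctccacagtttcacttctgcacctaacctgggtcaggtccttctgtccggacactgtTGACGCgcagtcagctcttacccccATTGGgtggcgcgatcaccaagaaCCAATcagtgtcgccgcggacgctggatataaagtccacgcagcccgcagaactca
H2-D1: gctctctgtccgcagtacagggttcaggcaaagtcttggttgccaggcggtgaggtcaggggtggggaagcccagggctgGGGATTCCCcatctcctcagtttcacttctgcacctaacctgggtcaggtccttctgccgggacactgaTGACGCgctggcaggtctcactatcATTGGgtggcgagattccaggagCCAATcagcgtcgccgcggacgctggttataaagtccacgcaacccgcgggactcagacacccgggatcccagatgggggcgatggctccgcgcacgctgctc
B2m: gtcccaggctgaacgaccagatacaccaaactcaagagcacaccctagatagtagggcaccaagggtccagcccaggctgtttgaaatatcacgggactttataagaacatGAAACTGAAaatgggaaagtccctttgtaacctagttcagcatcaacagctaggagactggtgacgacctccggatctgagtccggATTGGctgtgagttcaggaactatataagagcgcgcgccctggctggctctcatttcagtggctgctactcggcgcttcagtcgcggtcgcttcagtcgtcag

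Both heavy chain windows held the enhancer A letters, the X2 letters and 2 Y boxes in the same order. The first base of enhancer A and that of the X2 letters were 69 bases apart in both, and the X2 letters and the next Y box 25 bases apart in both. Over the 75 bases from enhancer A through the X2 letters, 71 were identical. The enhancer A letters occurred in windows of 0.414% of the 27025 genes in the table, and the X2 letters in 15.6%. The B2m window held 1 match to the interferon response core, as did windows of 9.76% of genes, and 1 Y box. A Y box was found for 6 of 8 members (H2-K1, H2-D1, B2m, Tap1, Tapbp and Psmb9), against 41.1% of genes. The windows of Tap1 and Psmb9 overlap, and the same Y box is counted for both. Those of H2-K1 and H2-D1 are alike, so the 6 are not separate findings. A STAT site letter match was found for Psmb8 alone among the 8, against 9.55% of genes. These are matches of letters and not binding sites. Exact letters alone were searched, so a window with no match may still hold a variant of the site. Both heavy chain windows hold tttcacttc after enhancer A, a near match to the interferon core that the search passes over. The B2m window holds tgacga before its Y box, 1 letter from the X2 letters and unmarked.

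Of the genes of peptide transport and loading, 2 of 3 were at least 2-fold lower under the si label. Tap1 encodes a subunit of the peptide transporter and read 162 on the array labelled si, 394 on that labelled HG and 355 on that labelled normal over 10 spots. Tap1 was 2.85-fold lower than under the HG label. Its spots lay between 153 and 171 under si, between 373 and 416 under HG and between 333 and 383 under normal. The si spots stood apart from both other sets, and those had an overlap with each other.

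**Figure D2:**
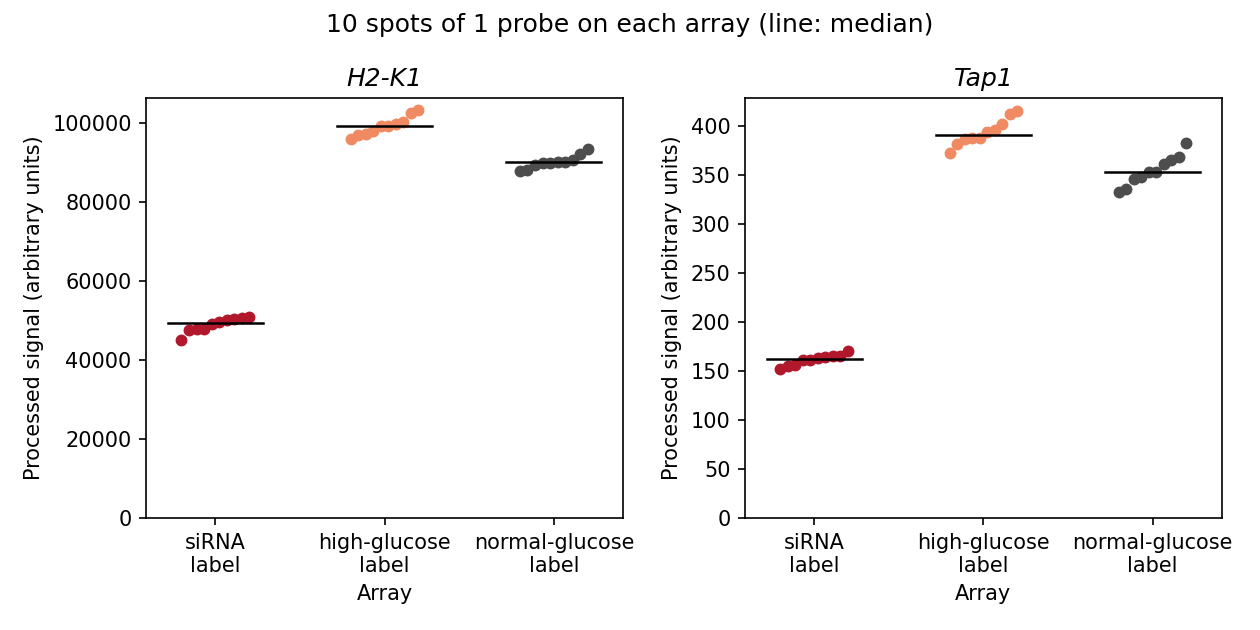
Processed signal, in arbitrary units from 0, of each of the 10 spots of 1 probe of H2-K1 (left) and of Tap1 (right) on the arrays labelled si, HG and normal, with the median as a line. For both genes the si spots lie below all others; H2-K1 medians were 49342 under si, 99370 under HG and 90052 under normal, and Tap1 medians 162 under si, 391 under HG and 353 under normal.

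Tap2, the partner subunit of the same transporter, read 8358 on the array labelled si, 11320 on that labelled HG and 12237 on that labelled normal. It was 1.59-fold lower under the si than the HG label, so the transporter's subunits differed by unequal amounts, 1.80-fold apart. With normexp correction of background the log2 differences were -1.23 for Tap1 and -0.68 for Tap2, a smaller gap. The size of the gap thus depends on the processing of the low Tap1 signal. Tapbp encodes tapasin, which bridges the transporter and the empty class I molecule. It read 7994 on the array labelled si, 15039 on that labelled HG and 15220 on that labelled normal. Tapbp was 2.2-fold lower under the si label.

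Each of the 3 immunoproteasome subunits was at least 2-fold lower under the si than the HG label. Psmb9 encodes the subunit LMP2 and read 1333 on the array labelled si, 3425 on that labelled HG and 3248 on that labelled normal. It was 3.01-fold lower (2.57-fold without scaling), the lowest difference among the members, and 3.38% of all genes compared had a lower one. Psmb8, the gene of LMP7, read 3832 on the array labelled si, 7455 on that labelled HG and 6901 on that labelled normal. Its signal was 2.28-fold lower after scaling, and 1.95-fold lower without. Psmb10, the gene of MECL-1, read 22104 on the array labelled si, 41138 on that labelled HG and 42876 on that labelled normal. It was 2.18-fold lower after scaling, and 1.86-fold lower without.

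Psmb9 and Tap1 are neighbours on chromosome 17 that are read in opposite directions from 1 shared stretch of promoter. Their differences between the si and HG labels, -1.59 and -1.51, were 1.05-fold apart, a gap of -0.08 on the log2 scale. Between the si and normal labels they were 1.11-fold apart. The si and HG differences were -1.60 for Psmb9 and -1.41 for Tap1 with quantile normalization, and -1.52 and -1.23 with normexp correction. How near the pair lies therefore depends on the comparison and the processing. The starts lie 225 bases apart, and the promoter windows share 275 of 300 bases, so 1 window is shown, that of Tap1 on the plus strand at chr17:34187306-34187605. Capitals mark the only match to the letters searched, a Y box that lies near the Psmb9 start.
Tap1: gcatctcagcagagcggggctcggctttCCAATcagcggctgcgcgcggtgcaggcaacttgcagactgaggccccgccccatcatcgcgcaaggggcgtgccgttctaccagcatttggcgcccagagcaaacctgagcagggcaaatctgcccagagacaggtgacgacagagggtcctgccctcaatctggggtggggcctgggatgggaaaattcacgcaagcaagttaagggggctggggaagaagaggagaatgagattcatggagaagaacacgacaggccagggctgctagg

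Psmb8 and Tap2 follow Tap1 as the next genes on the chromosome in the gene table. Their differences, -1.19 and -0.66, were 1.44-fold apart. Within the cluster of 4 neighbours the differences were therefore not equal. Of the 7 members on chromosome 17, which holds the mouse MHC, 5 were at least 2-fold lower under the si label, as was 1 of the 3 on other chromosomes: Psmb10 on chromosome 8, with Nlrc5 on the same chromosome and B2m on chromosome 2 below that size. Over all genes compared, 8.35% were at least 2-fold lower. Without scaling Tapbp, Psmb8 and Psmb10 fell short of 2-fold, at -0.91, -0.96 and -0.90, so these counts depend on the scaling. The part of position on the chromosome was not tested.

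Nlrc5, the transactivator that drives class I promoters through their X and Y boxes, differed least. Its brighter probe read 2139 on the array labelled si, 2038 on that labelled HG and 1981 on that labelled normal. The scaled difference between the si and HG labels was -0.16, and it was 0.07 without scaling and 0.02 with the mean over its probes, so Nlrc5 had no direction that held across settings. The second probe was dim, at 34.6 under si, 25.8 under HG and 22.1 under normal, and its difference was 0.20. The differences of Nlrc5 and of the genes it drives were of unequal size on these arrays. The part of Nlrc5 in the other differences was not tested.

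Between the arrays labelled HG and normal the class I genes were close. The median log2 difference was 0.10, against -0.01 over 15081 genes. Of the members 8 of 10 were above 0, while 55.6% of all genes were below it. Member values ran from -0.07 for Tap2 to 0.19 for Tap1. H2-K1 was 1.13-fold higher, B2m 1.12-fold and Psmb8 1.11-fold under the HG label. These differences exceeded the 0.08 that the spread of spots gives, which leaves out culture and hybridisation error. No member was 2-fold lower or higher, where 0.69% of genes were lower and 0.816% higher by that size. Over all genes the lower and upper quartiles of this difference were -0.07 and 0.05.

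Relative to the normal label, the median difference under the si label was -1.05 for the 10 members and 0.02 for 15278 genes. Psmb9, Tap1, Psmb10, Tapbp, H2-K1 and Psmb8, the same 6 members, were at least 2-fold lower, against 8.1% of genes, and none was 2-fold higher, against 6.47% of genes. H2-K1 was 2.10-fold lower, Tap1 2.50-fold, Psmb9 2.77-fold and Tapbp 2.17-fold. H2-D1 was 1.62-fold lower, Tap2 1.67-fold and B2m 1.31-fold. Each pair of the 3 comparisons shares an array, so they are not independent. Without scaling, 2 members (Psmb9 and Tap1) were at least 2-fold lower, beside 5.92% of all genes lower and 8.90% higher. With the 2 high-glucose arrays exchanged, the median is 0.10 here and -1.05 between HG and normal.

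**Figure D3:**
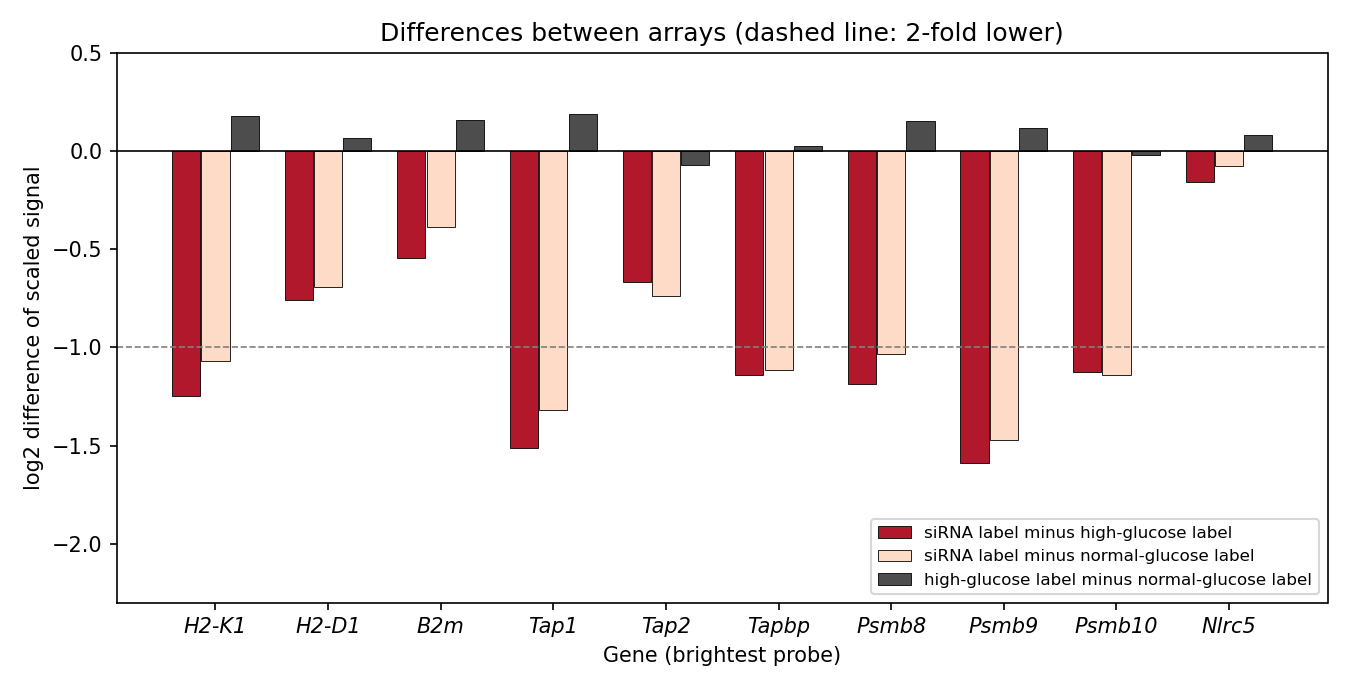
Bars give the log2 difference of the brightest probe of each class I gene between 2 arrays: si label minus HG label, si label minus normal label, and HG label minus normal label. Both sets with the si label point down for every gene, to -1.59 for Psmb9, while the bars of HG minus normal stay between -0.07 and 0.19; the dashed line is 2-fold lower.

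The catalytic subunits of the constitutive proteasome were set beside those of the immunoproteasome. Psmb5, Psmb6 and Psmb7 encode the catalytic subunits that Psmb8, Psmb9 and Psmb10 replace. Psmb5 read 136070 under si, 106931 under HG and 116711 under normal. Psmb6 read 81013 under si, 57266 under HG and 59306 under normal, and Psmb7 11809 under si, 9041 under HG and 9869 under normal. Under the si label they differed from the HG label by 0.12, 0.27 and 0.16 on the log2 scale. Psmb8 and Psmb5 were thus 2.48-fold apart in their differences, Psmb9 and Psmb6 3.63-fold, and Psmb10 and Psmb7 2.43-fold. These ratios are taken within arrays, so no scaling by 1 factor per array alters them.

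Among 12 further genes of the proteasome core and its assembly, differences between the si and HG labels ranged from -0.16 to 0.81, with a median of 0.04 and none past 2-fold. The largest difference there was 0.81 for Psmb3. Psme1 and Psme2 encode the interferon-inducible activator PA28, which caps the core. Psme1 differed by -0.56 and Psme2 by -0.43, while Psme4, the gene of another activator, differed by 0.59. None of the 4 activator genes was past 2-fold, and their median was -0.39.

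Other heavy chain genes were lower along with H2-K1 and H2-D1. Of 15 further H2 heavy chain genes listed, 11 were measured on both arrays, and all 11 were lower under the si than the HG label, 6 of them at least 2-fold, with a median of -1.02 and a range from -1.27 to -0.37. H2-Q1, well above background under the si label alone (20.1 under si, 4.91 under HG and 6.65 under normal), lay the other way, with a bound of 0.07. H2-T23, which encodes the Qa-1 molecule, read 32875 under si, 62145 under HG and 62174 under normal and was 2.21-fold lower under the si than the HG label. H2-Bl was 2.41-fold lower, H2-Q10 2.34-fold, H2-Q6 2.17-fold and H2-Q2 2.05-fold. These genes are close relatives whose probes may share signal with each other and with H2-K1 and H2-D1, so they are not separate readings. With the class I-like genes outside the H2 series, 18 genes were compared, of which 13 lay below 0 and 5 above it, with a median of -0.78. Of these, 7 were at least 2-fold lower and none passed 2-fold higher, though Procr, the endothelial protein C receptor, came close at 0.998 on the log2 scale. Over all genes compared, 48.3% lay below 0, 8.35% were at least 2-fold lower and 6.62% at least 2-fold higher. Between the HG and normal labels the 11 ranged from -0.03 to 0.15.

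The other loading factors were not all lower. Tapbpl, encoding the tapasin-related peptide editor, read 787 under si, 1140 under HG and 1219 under normal and had a log2 difference of -0.76 between the si and HG labels. Erap1, which trims peptides in the endoplasmic reticulum, differed by -0.67. The general chaperones Calr, Canx and Pdia3 differed by -0.24, 0.09 and -0.06. Lnpep, a peptidase that trims peptides in endosomes, differed by 0.60. None of the 6 genes of loading and trimming was past 2-fold, and their median was -0.15.

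Of 16 transcription factor genes that act on class I promoters, 2 were at least 2-fold lower under the si than the HG label, Irf1 among them, and none was 2-fold higher, with a median of -0.27. Over all genes compared, 8.35% were lower and 6.62% higher by that size. Irf1, an interferon-induced activator of class I and immunoproteasome genes, read 9620 under si, 19491 under HG and 19347 under normal and was 2.37-fold lower. Stat2 differed by -0.99. The partners of Nlrc5 on the X box differed less, Rfxank by -0.53 and Rfxap by -0.63. Rfx5, of the same complex, was dim at 27.2 under si, 13.5 under HG and 22.3 under normal, and not well above background under the HG label. Creb1, whose protein can bind the X2 box, differed by 0.64 on its brighter probe. Its dimmer probe read 46.2 under si, 71.8 under HG and 140 under normal and differed by -0.86, so Creb1 had no clear direction.

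Interferon signalling genes had a median of -0.45 between the si and HG labels, with 12 of 14 below 0, where 48.3% of all genes were. Of the 14, 3 were at least 2-fold lower and none 2-fold higher under the si label, beside 8.35% and 6.62% of all genes. Irf7, an inducer of type I interferons, read 1077 under si, 2568 under HG and 2572 under normal, and was 2.79-fold lower under the si than the HG label. Of the receptor genes, Ifngr1, for interferon gamma, was 2.64-fold lower and Ifnar2, for type I interferons, 2.11-fold lower. The partner chains of these receptors differed less: Ifngr2 by 0.18 and Ifnar1 by -0.47 on the log2 scale. Ifnb1 was low on every array, at 80.1 under si, 99.0 under HG and 94.0 under normal, and Ifng was not well above background on any. Between the arrays labelled HG and normal this list had a median of -0.01.

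**Figure D4:**
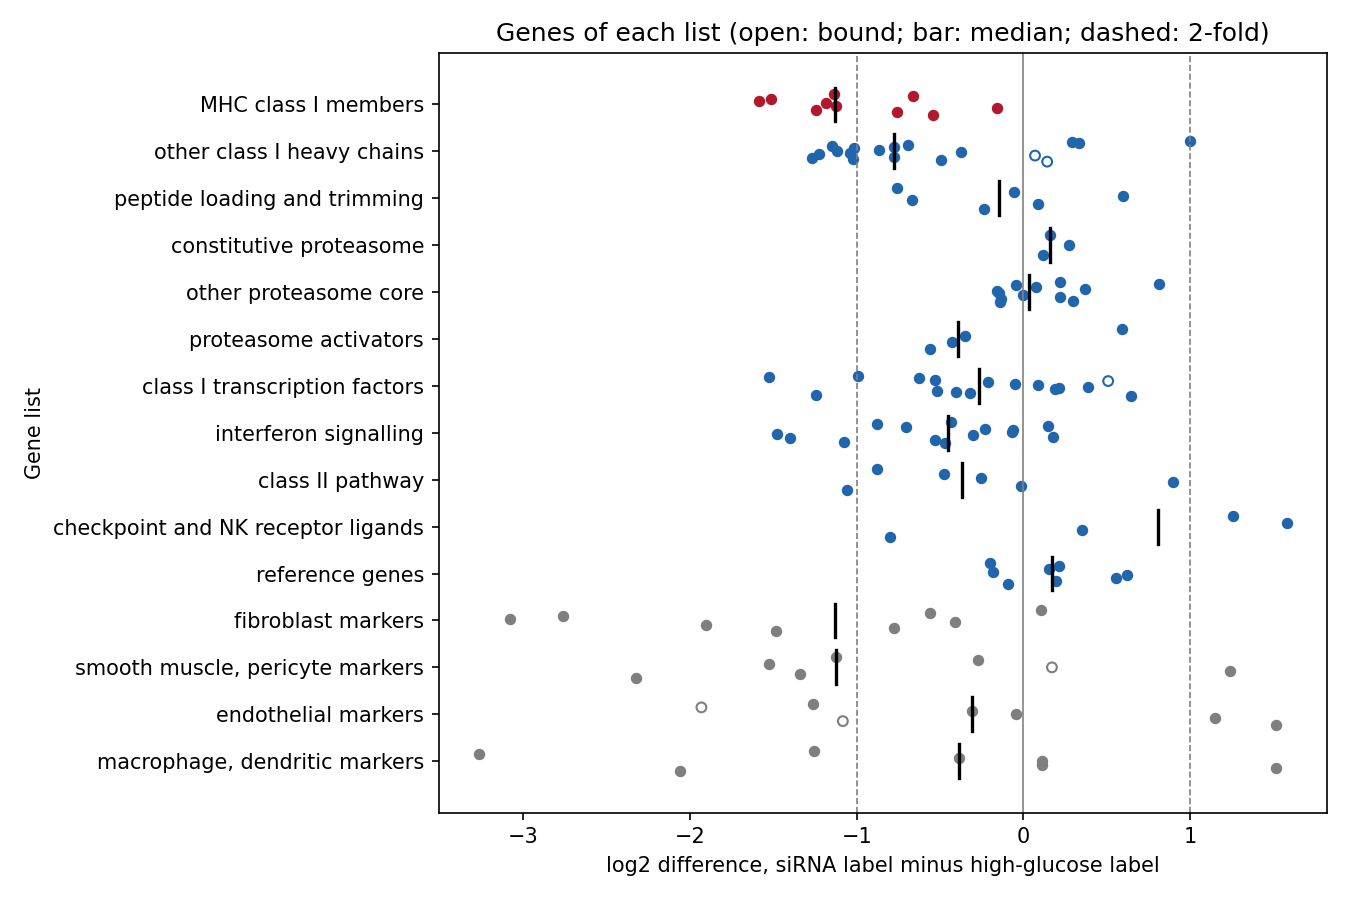
Each point is 1 gene, placed by its log2 difference between the arrays labelled si and HG; bars are list medians, open circles are bounds where 1 array was not well above background, and dashed lines mark 2-fold. The 10 class I members (median -1.13) lie left of the constitutive proteasome (0.16) and of the reference genes (0.17), while fibroblast markers (-1.13) and smooth muscle and pericyte markers (-1.13) lie as far left.

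Markers of other cells also differed between the arrays. Over all genes, 8.35% were at least 2-fold lower and 6.62% at least 2-fold higher between the si and HG labels. The 8 fibroblast markers had a median of -1.13 between the si and HG labels, with 4 at least 2-fold lower, and a summed signal of 727010 on the array labelled si, 897486 on that labelled HG and 910267 on that labelled normal. Of 8 smooth muscle and pericyte markers 7 were compared, with a median of -1.13, 4 at least 2-fold lower and 1 at least 2-fold higher. Their summed signal was 27980 on the array labelled si, 64253 on that labelled HG and 70617 on that labelled normal. Myh11 of that list was above background on none of the arrays. Their part in the class I differences was not tested.

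Immune cells carry high levels of class I molecules. Of 7 macrophage and dendritic cell markers on the array, 3 were at least 2-fold lower and 1 at least 2-fold higher under the si than the HG label. Over all genes compared, 8.35% were lower and 6.62% higher by that size. The 7 markers had a median of -0.39 and a summed signal of 39694 on the array labelled si, 30411 on that labelled HG and 32197 on that labelled normal. Ptprc, carried by all leukocytes, was dim at 21.4 under si, 43.5 under HG and 40.0 under normal, and Adgre1, a macrophage marker, read 257 under si, 917 under HG and 860 under normal. Cd14, a monocyte and macrophage receptor, went the other way, at 16711 under si, 4989 under HG and 5420 under normal, 2.86-fold higher under the si than the HG label, and it is part of the summed signal. Csf1r, the macrophage growth factor receptor, had a log2 difference of 0.11. The T and NK cell markers Cd3g, Cd8a and Klrb1c stayed at background throughout. Cd4 read 4960 under si, 4132 under HG and 4173 under normal on its brighter probe. Its other probe was dim, at 34.8 under si, 26.4 under HG and 27.4 under normal, so the probes disagree on the level of Cd4. Cd3e read 1094 under si, 989 under HG and 970 under normal. The scaled log2 differences between the si and HG labels were 0.04 for the brighter Cd4 probe and -0.08 for Cd3e. The unscaled signals of the T and NK cell list summed to 6078 on the array labelled si, 5149 on that labelled HG and 5175 on that labelled normal. The brighter Cd4 probe is the largest part of each sum. Of the B cell list, Cd79a was the marker compared: it read 87.8 under si, and was not well above background under HG (15.2) or normal (6.10), which makes it at least 4.58-fold higher under the si than the HG label. The part of leukocytes was not tested. Of 4 Schwann cell markers 1 was at least 2-fold lower and 1 at least 2-fold higher under the si label, and all 3 epithelial markers above background were higher, 1 of them at least 2-fold. The 8 reference genes ranged from -0.20 to 0.62, with a median of 0.17.

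Across the 3 arrays, the genes nearest to the class I median in the plane of its differences (si minus HG, HG minus normal) were Vwa5a, Trim12c, Dtx3l, Slc12a5 and Lrrk1, at Euclidean distances between 0.02 and 0.05 on the log2 scale. These were taken among genes with at least 2 probes that had like signs in both differences. With 3 arrays this likeness is weak: 997 genes lay as near to the class I median as the median member did.

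**Figure D5:**
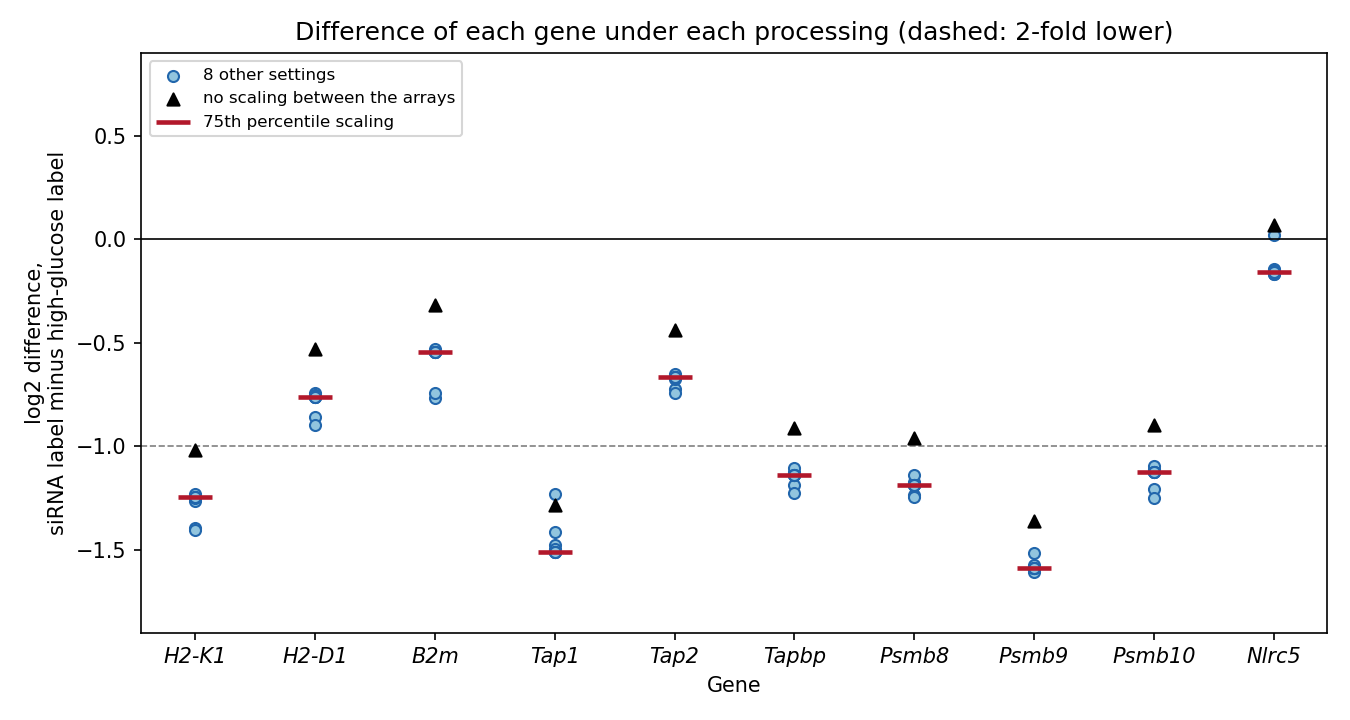
For each class I gene, points give the log2 difference between the si and HG labels under scaling to the 75th percentile (red), 8 other ways of processing (blue) and no scaling (black triangles). For genes with 1 probe, the value table and probe rules among the 8 repeat or nearly repeat the red value. For every gene but Nlrc5 all points stay below 0. Without scaling Tapbp, Psmb8 and Psmb10 lie above the dashed line of 2-fold, at -0.91, -0.96 and -0.90.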

How the data were processed

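Total RNA was labelled with Cy3 and hybridised to single-colour Agilent arrays. Per the file headers, Agilent Feature Extraction 11.0.1.1 gave each spot a background-subtracted linear intensity. The deposited series value table also holds linear intensity: for all single-spot probes its columns equalled each array's own processed signal to within 0.1%. Column medians were 129, 118 and 118 for the si, HG and normal labels, without centring.

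Outlier spots (107 for si, 147 for HG and 109 for normal) were left out, log2 signals of repeated spots were averaged per probe, and the 75th percentile of the array was subtracted. A probe was well above background where at least 50% of its spots carried that mark, which held for 70.6% (si), 67.6% (HG) and 67.1% (normal) of probes. Probes were named by accession through the RefSeq gene table of GRCm38.p6 (26036 of 39398, 66.1%). The files were annotated on mm9. Coordinates are given for the promoter windows alone, on the RefSeq table's own build.

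A gene's value is that of its brightest probe among those well above background on at least 1 array. Where 1 of 2 arrays was not, the difference is a bound against the higher of the dim value and the lowest value above background. Differences of at least 2-fold are counted, with no p-value, since each group holds 1 array. The number of arrays limits the precision. Over 272 repeated probes the typical SD between spots was 0.06 (log2), which gives 0.08 for a difference.

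Members and lists (10 pathway and 8 cell type lists, 158 of 163 entries on the array) were chosen with earlier results of these data known. All members are named, with up to 6 genes per list by size of difference between the si and HG labels, those whose role pairs with a member, and the 5 genes nearest to the member median. Some list genes are not reported here. The comparison of proteins was not made, as no protein sequences were used here. The steps were tested on simulated data. Alternatives were quantile normalization, cyclic loess and median scaling, normexp correction (offset 50, limma 3.58.1 in R 4.3.3) on median signals because mean signals were not used here, the value table, other probe rules, thresholds of 1.5-fold and 3-fold, and exchange of the 2 high-glucose arrays. Running without scaling was added later. Other steps used Python 3.11.15.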

Additional observations from a re-analysis of the deposited data

How the results depend on the processing

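The count of 6 members at least 2-fold lower under the si than the HG label was the same with quantile normalization, cyclic loess, median scaling, normexp, the value table and 3 other probe rules. Against the normal label it was 6 in these except 5 with normexp, where Psmb8 stood at -0.99. Without scaling the counts were 3 and 2 and the medians -0.90 and -0.87 for these comparisons, and at a 3-fold threshold the counts were 1 and 0. With cyclic loess the medians were -1.23 and -1.13. The value table and the 3 other probe rules could change few of the member values. The value table holds the processed signal, 8 members had 1 probe, and all 12 probes were well above background on every array. Over all genes, 1283 were 2-fold lower and 1017 higher between the si and HG labels, against 783 and 619 with normexp; for the si and normal labels 1237 and 989 became 769 and 605. Between HG and normal, 104 and 123 became 33 and 43 with normexp, 26 and 35 when each probe had to pass the background mark on all arrays, and 329 and 433 without a filter on dim probes. Over 9 settings without the exchange, 226 of 270 differences of single members moved by less than the spot spread of 0.08. The other 44 moved by more, and no difference of 2-fold or more turned its sign. The 9 settings include the value table and the probe rules, so the 226 partly count settings that could not move a value.

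Exchanging the 2 high-glucose arrays, as the file names have them, turns the first comparison round by construction: H2-K1 became 1.25, Psmb10 1.12, Psmb8 1.19, Psmb9 1.59, Tap1 1.51 and Tapbp 1.14, with a median of 1.13, 6 members at least 2-fold higher and 0 lower. The si label against normal label then read 0.18 for H2-K1, 0.15 for Psmb8, 0.12 for Psmb9, 0.19 for Tap1, 0.024 for Tapbp and -0.02 for Psmb10, with Tap2 at -0.07, a median of 0.10 and 0 members 2-fold lower, and HG label against normal label had a median of -1.05 with 6 members 2-fold lower. No paired analysis was possible because each group holds 1 array, and leaving out a replicate could not be run.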

Other observations

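Ligands that natural killer cells read beside class I molecules were among the genes higher on the array labelled si. Raet1e, encoding a ligand of the activating receptor NKG2D, read 15494 under si, 4421 under HG and 4494 under normal, and was 2.99-fold higher under the si than the HG label. Ulbp1, of another NKG2D ligand, was dim at 126 under si, 44.9 under HG and 48.4 under normal and 2.40-fold higher. Cd274, the gene of the checkpoint ligand PD-L1, was 1.74-fold lower and Cd47 differed by 0.35. These are the 4 genes of that list that were compared, with a median of 0.80, and each rests on 1 array per label.

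Class II genes serve presentation to CD4+ T cells. Of 8 listed, 6 were compared between the si and HG labels, with 1 at least 2-fold lower, none 2-fold higher and a median of -0.37. Over all genes compared, 8.35% were lower and 6.62% higher by that size. H2-Aa and H2-Oa were not well above background on any array, and Ciita, the class II counterpart of Nlrc5, read 25.7 under si, 22.2 under HG and 19.3 under normal, with a difference of -0.02 between the si and HG labels. Cd74, the invariant chain, was dim at 36.5 under si, 64.8 under HG and 66.0 under normal and 2.08-fold lower, while H2-Ab1 read 824 under si, 378 under HG and 366 under normal and differed by 0.90. Of 5 class I-like genes outside the H2 series (Cd1d1, Mr1, Fcgrt, Hfe and Procr) that were measured on both arrays and are named after their values were seen, 2 were lower under the si label, Cd1d1 and Fcgrt. Fcgrt, the neonatal Fc receptor heavy chain, was 2.04-fold lower. Procr, the endothelial protein C receptor, read 38145 under si, 16319 under HG and 18106 under normal, just under 2-fold higher under the si than the HG label (0.998 on the log2 scale). Hfe was 1.26-fold higher and Mr1 1.23-fold higher.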
